A study of Mus musculus with 12 samples.

Results

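This account concerns 10 genes of transforming growth factor beta (TGF-β) signalling in 4T1 cells: the ligand genes Tgfb1, Tgfb2 and Tgfb3, the receptor genes Tgfbr1 and Tgfbr2, the inhibitory SMAD genes Smad6 and Smad7, and the Id genes Id1, Id2 and Id3. They were taken by gene symbol from a table of raw counts for 22298 genes, and were chosen with earlier results of these data known. All 10 were found, and all 10 passed the filter on low counts, which left 11904 genes for testing. The 4T1 line derives from a mammary tumour of a BALB/c mouse and models triple-negative disease. RNA was sequenced from cells that carried 1 of 3 guide RNAs: sgRNA1 or sgRNA2, which target Cop1, or a guide to Rosa26, which is often cut as a neutral control site. Each of these populations received interferon gamma (IFNγ) at 20 ng/ml or vehicle for 24 hours. The 6 groups are therefore Cop1 sgRNA1, Cop1 sgRNA2 and Rosa26 cells with IFNγ, and Cop1 sgRNA1, Cop1 sgRNA2 and Rosa26 cells in vehicle, with 2 libraries each. The labels do not say whether a population was a pool or 1 clone, nor whether replicates were separate cultures, and the p-values therefore cover only the variation between these libraries, which may be technical. The design asks what loss of Cop1, which encodes an E3 ubiquitin ligase, does to transcription with and without IFNγ.

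TGF-β ligands are secreted in a latent form, released outside the cell, and bind the type II receptor TGFBR2, which then activates the type I receptor TGFBR1. The activated receptor phosphorylates SMAD2 and SMAD3, which enter the nucleus with SMAD4 and bind DNA with other factors. SMAD6 and SMAD7 are inhibitory SMADs that are induced by the pathway and restrain it. The related bone morphogenetic protein (BMP) branch signals through SMAD1, SMAD5 and SMAD9, and the Id genes are among its classic targets. ID proteins lack a DNA-binding region and hold basic helix-loop-helix factors such as the E proteins away from DNA. In mammary carcinoma, TGF-β is known both for restraining growth and for promoting invasion.

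Promoter sequence is shown for 3 genes because it lets the reader see the start regions of members that differed with Cop1 loss: Tgfb2, a ligand gene that was lower, Id2, which was higher, and Tgfbr1, which was called lower in vehicle. The sequences are from RefSeq for build GRCm38.p6 and end before a RefSeq start of the gene. The Tgfb2 sequence is chr1:186705990-186706239 on the minus strand, the Id2 sequence is chr12:25096254-25096342 on the minus strand, and the Tgfbr1 sequence is chr4:47352972-47353221 on the plus strand. The Id2 sequence is the part of its window that lies outside annotated exons, from 250 to 162 bases before that RefSeq start, and it lies inside the longer interval that GENCODE gives for Id2, downstream of the start of that interval. Capitals mark 3 kinds of SMAD-related letters on either strand: the SMAD box GTCT, which reads AGAC on the other strand, the CAGA box CAGACA, and the GC-rich BMP element GGCGCC.
Tgfb2: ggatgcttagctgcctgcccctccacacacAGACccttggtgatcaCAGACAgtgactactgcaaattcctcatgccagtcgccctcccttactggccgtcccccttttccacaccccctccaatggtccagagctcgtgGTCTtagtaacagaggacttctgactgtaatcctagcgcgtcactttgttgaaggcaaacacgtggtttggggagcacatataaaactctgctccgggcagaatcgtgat
Id2: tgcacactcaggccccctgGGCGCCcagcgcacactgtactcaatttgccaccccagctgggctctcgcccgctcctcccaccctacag
Tgfbr1: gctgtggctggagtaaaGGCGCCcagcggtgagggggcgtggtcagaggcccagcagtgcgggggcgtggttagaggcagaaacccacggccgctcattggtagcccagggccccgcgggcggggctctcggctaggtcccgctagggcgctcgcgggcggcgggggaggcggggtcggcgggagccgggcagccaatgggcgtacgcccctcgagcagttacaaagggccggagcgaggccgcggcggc
The Tgfb2 sequence held 3 SMAD boxes, first bases 220, 203 and 110 before the start, and a CAGA box at 204 that overlaps the second of them. The Id2 sequence held GGCGCC at 231 bases before the start, and the Tgfbr1 sequence held it at 233. Tgfbr1 has another RefSeq start region, not shown, which held 2 SMAD boxes, 1 CAGA box and an E-box. Of 32851 RefSeq promoter windows of 300 bases, from 250 before to 50 after the start, 88.0% held GTCT on either strand, 21.0% held CAGACA and 11.9% held GGCGCC. The E-box CANNTG, the site of basic helix-loop-helix factors, occurred in 72.3% of the windows and, among members with a window, in those of Id2, Smad6, Tgfb2, Tgfbr1 and Tgfbr2. Windows were available for 7 of the 10 members. The SMAD box also occurred in the windows of Id3, Smad6, Tgfb1 and Tgfbr2. The Id2 window held it as well, 23 bases before the start and outside the printed stretch. Another 4 motifs were searched on both strands. They were the gamma-activated site TTCNNNGAA in 8.3% of all windows, the interferon-stimulated response element core in 3.44%, the AP-1 element TGANTCA in 7.81% and the ETS core CCGGAA in 14.9%. The member windows held none of these 4. Such matches describe letters in a short window only.

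The libraries held between 19378070 and 32609717 gene counts. Cop1 itself averaged 60.4 ± 0.388 CPM (counts per 1000000 of the library's TMM-scaled total) in sgRNA1 cells and 32.9 ± 0.935 in sgRNA2 cells with IFNγ, against 81.9 ± 2.07 in Rosa26 cells (SD, n = 2 each). In vehicle it averaged 61.1 ± 2.83 in sgRNA1 cells and 34.6 ± 0.204 in sgRNA2 cells, against 93.9 ± 6.0 in Rosa26 cells. Its transcript therefore remained detectable with both guides, at 73.8% of the Rosa26 mean for sgRNA1 and 40.2% for sgRNA2 with IFNγ, and at 65.0% and 36.8% in vehicle. Counts do not show how much COP1 protein was left. All 9 carcinoma epithelial markers averaged at least 1 CPM. Of 8 fibroblast markers only Pdgfra did, of 6 endothelial markers none did, and of 12 leukocyte markers Cd14 and Cd68 did, with Cd3e, Adgre1, Nkg7 and Ms4a1 at 0 in every library. Thy1 of the fibroblast list and Emcn of the endothelial list were also at 0 throughout. Summed epithelial markers lay between 3796 and 3894 CPM in Cop1-guide libraries and between 3559 and 3561 in Rosa26 libraries with IFNγ, and between 4466 and 4509 against 4134 to 4261 in vehicle. Summed fibroblast markers lay between 17.0 and 22.9 CPM in Cop1-guide libraries and between 22.9 and 24.6 in Rosa26 libraries in vehicle, and between 15.9 and 17.4 against 16.9 to 17.2 with IFNγ. The summed leukocyte markers lay between 20.6 and 24.3 CPM in Cop1-guide libraries and between 32.7 and 33.5 in Rosa26 libraries with IFNγ, and between 21.6 and 24.9 against 28.9 to 29.3 in vehicle. The part of these marker differences in the results below was not tested.

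With Cop1 loss in vehicle, 5 of the 10 genes differed from Rosa26 cells: Id2 and Id3 were higher, and Tgfb2, Smad7 and Tgfbr1 were lower. With IFNγ, 4 differed: Id2 and Id3 were again higher, and Tgfb2 and Smad7 again lower. With IFNγ, 19.8% of all genes were called higher and 20.7% lower, and in vehicle 16.6% and 19.2%. Cop1 loss here is the mean of both guides, and a gene was called where the Benjamini-Hochberg adjusted p of edgeR's quasi-likelihood test was under 0.05 over all tested genes. Of all tested genes, 35.8% were called in vehicle and 40.6% with IFNγ, so the counts among these 10 genes were near the background. The members' median absolute log2 change was 0.17 in vehicle and 0.24 with IFNγ, against 0.14 and 0.15 over all genes tested. IFNγ changed 5 of the 10 in Cop1-loss cells, where 34.2% of all genes were called, and 4 in Rosa26 cells, where 32.8% were. Id3 and Id1 rose and Tgfb3 and Id2 fell with IFNγ in both, and Smad7 fell in Cop1-loss cells. Of all genes, 18.1% were called higher and 16.1% lower with IFNγ in Cop1-loss cells, and 16.6% and 16.2% in Rosa26 cells. The median absolute log2 change of the members under IFNγ was 0.19 in Cop1-loss cells and 0.16 in Rosa26 cells, against 0.11 and 0.15 over all genes. When the libraries of each population were summed, 6 samples were left, with a single Rosa26 sample per treatment. The spread of that fit comes only from the difference between the sgRNA1 and sgRNA2 populations, so it does not measure variation among Rosa26 cells. In that fit the calls of Tgfbr1 and Smad7 for Cop1 loss in vehicle and of Id3 with IFNγ were lost, as was that of Cop1 itself. So were those of Id1 and Id2 for IFNγ in Rosa26 cells. In bulk samples, fewer cells of a type and less RNA per cell cannot be told apart.

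**Figure D1:**
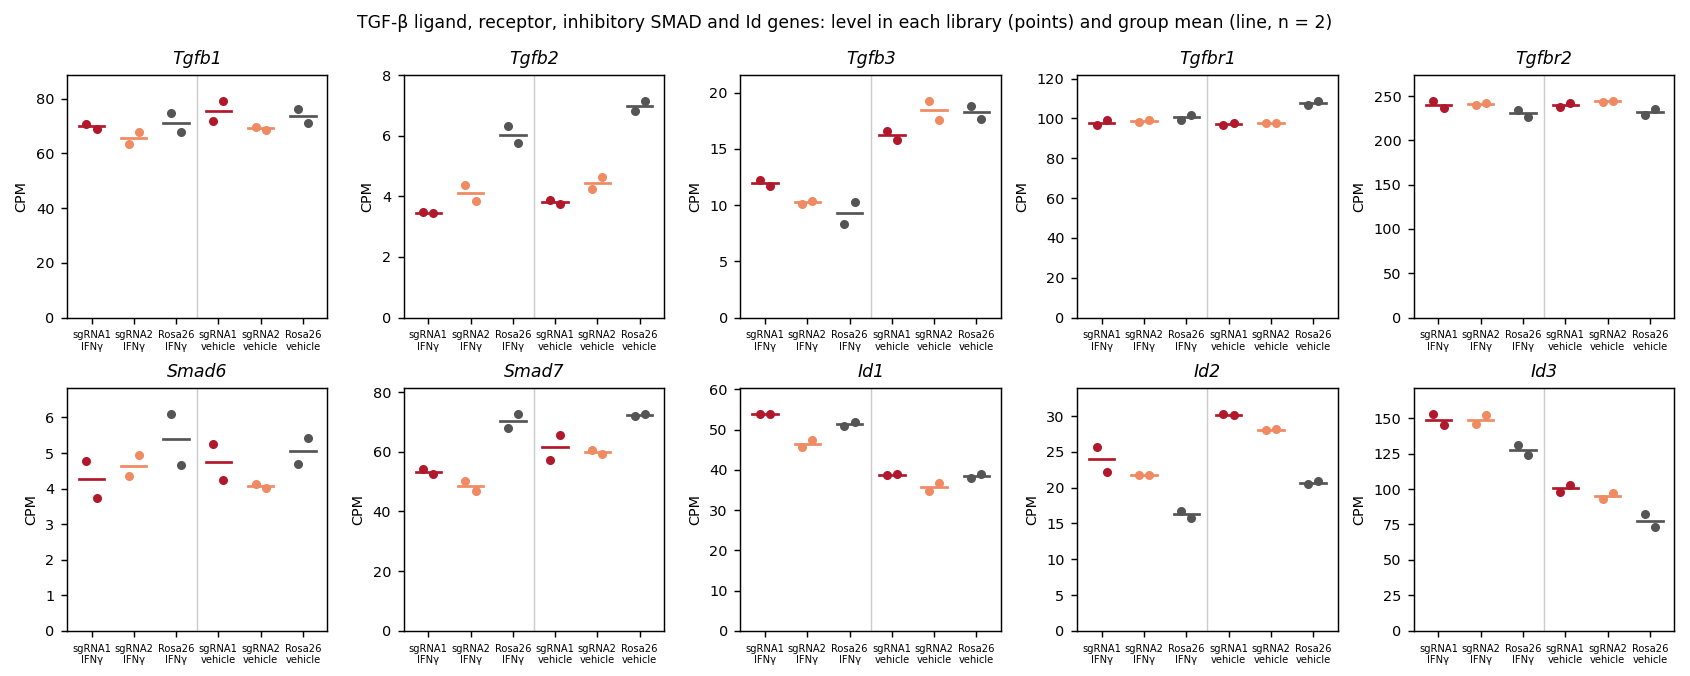
Level of each of the 10 genes in CPM on a linear axis starting at 0, with 1 point per library and a line at the mean of the 2 libraries of each group. Tgfb2 and Smad7 lie lower and Id2 and Id3 higher in both Cop1-guide populations than in Rosa26 cells of the same treatment, while Tgfb3, Id1 and Id3 separate by IFNγ.

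Among the ligand genes, Tgfb2 (chromosome 1, 186622792 to 186705989, minus strand, GRCm38) responded to the Cop1 guides. In vehicle it had 3.89 and 3.76 CPM in sgRNA1 cells and 4.23 and 4.64 in sgRNA2 cells, against 6.82 and 7.16 in Rosa26 cells. With IFNγ it had 3.48 and 3.44 CPM in sgRNA1 cells and 4.39 and 3.83 in sgRNA2 cells, against 6.31 and 5.76 in Rosa26 cells. In both treatments every Cop1-guide library lay below every Rosa26 library. The log2 change was -0.76 ± 0.153 (SE; adjusted p = 0.000105) in vehicle, or 0.591-fold, and -0.68 ± 0.16 (adjusted p = 0.000639) with IFNγ, or 0.626-fold. These values rest on 195 to 325 counts per group in vehicle and 167 to 279 with IFNγ. IFNγ did not move Tgfb2 past the threshold in Cop1-loss cells (log2 change -0.13 ± 0.139, adjusted p = 0.518) or in Rosa26 cells (-0.21 ± 0.173, adjusted p = 0.379). Exons of Tgfb2 overlap those of the antisense gene Gm29491, and without a known strand setting their reads cannot be told apart.

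Tgfb3 (chromosome 12, 86056745 to 86079041, minus strand) responded to IFNγ. It had 12.2 and 11.7 CPM in sgRNA1 cells and 10.1 and 10.4 in sgRNA2 cells with IFNγ, against 16.6 and 15.8 in sgRNA1 cells and 19.3 and 17.6 in sgRNA2 cells in vehicle. Rosa26 cells had 8.32 and 10.3 CPM with IFNγ, against 18.8 and 17.7 in vehicle. No IFNγ library reached the level of a vehicle library of the same population. The log2 change was -0.64 ± 0.081 (adjusted p = 1.26e-08) in Cop1-loss cells and -0.97 ± 0.116 (adjusted p = 4.5e-09) in Rosa26 cells, that is 0.64-fold and 0.509-fold. Cop1 loss gave a log2 change of -0.08 ± 0.092 in vehicle (adjusted p = 0.554) and of 0.25 ± 0.109 with IFNγ (adjusted p = 0.0602). The IFNγ value depended on 1 library: without Rosa26 replicate 2 with IFNγ it was 0.41 (adjusted p = 0.0207). For sgRNA1 alone against Rosa26 it was 0.36 ± 0.122 (adjusted p = 0.0173), and for sgRNA2 alone 0.15 ± 0.127 (adjusted p = 0.412). Exons of Tgfb3 overlap those of Gm37804 and Gm48008 on the other strand.

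Tgfb1 (chromosome 7, 25687002 to 25705077, plus strand) encodes the most widely expressed of the ligands and did not pass the test in any of these 4 comparisons. Over the libraries it lay between 63.3 and 79.3 CPM in Cop1-guide cells and between 67.7 and 76.1 in Rosa26 cells, and the ranges overlapped in each comparison. Its log2 change with Cop1 loss was -0.03 ± 0.05 in vehicle and -0.07 ± 0.05 with IFNγ. Its IFNγ response in Cop1-loss cells, -0.09 ± 0.041 (adjusted p = 0.0773), was called without sgRNA1 replicate 1 in vehicle (adjusted p = 0.0215) or without sgRNA2 replicate 2 with IFNγ (adjusted p = 0.0462). Per kilobase of annotated exon, Tgfb1 held the greater part of the summed level of the 3 ligand genes in every group. With IFNγ its share was 77.1% in sgRNA1, 77.6% in sgRNA2 and 78.8% in Rosa26 cells, against 73.3%, 68.8% and 68.9% in vehicle for the same populations. The share of Tgfb2 was 3.32% in sgRNA1 and 4.25% in sgRNA2 cells with IFNγ, against 5.82% in Rosa26 cells, and 3.24% and 3.84% in vehicle, against 5.7%. Tgfb3 held 19.6%, 18.2% and 15.4% in sgRNA1, sgRNA2 and Rosa26 cells with IFNγ, against 23.5%, 27.3% and 25.4% in vehicle.

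The receptor genes moved little. Tgfbr1 (chromosome 4, 47353222 to 47414931, plus strand), the type I receptor, had 96.9 and 97.6 CPM in sgRNA1 cells and 97.5 and 97.7 in sgRNA2 cells in vehicle, against 107 and 109 in Rosa26 cells. With IFNγ it had 96.5 and 99.3 CPM in sgRNA1 cells and 98.4 and 99.3 in sgRNA2 cells, against 99.1 and 102 in Rosa26 cells. The Cop1-guide libraries lay below the Rosa26 libraries in vehicle and overlapped them with IFNγ. The log2 change with Cop1 loss was -0.15 ± 0.038 in vehicle (adjusted p = 0.00184), or 0.902-fold, and -0.03 ± 0.039 with IFNγ (adjusted p = 0.527). The difference between the treatments was 0.12 ± 0.055 on the log2 scale, and at an adjusted p of 0.238 (unadjusted 0.0396) it was not called. Tgfbr2 (chromosome 9, 116084293 to 116175360, minus strand), the type II receptor, lay between 238 and 245 CPM in Cop1-guide libraries and between 229 and 236 in Rosa26 libraries in vehicle, and between 237 and 244 against 227 to 234 with IFNγ. Although these ranges did not overlap, its log2 change of 0.06 ± 0.029 in each treatment missed the threshold (adjusted p = 0.11 in vehicle and 0.0823 with IFNγ).

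Smad7 (chromosome 18, 75367529 to 75395935, plus strand), which directs ubiquitin ligases to the receptors, was lower with both guides. In vehicle it had 57.4 and 65.5 CPM in sgRNA1 cells and 60.6 and 59.1 in sgRNA2 cells, against 71.9 and 72.5 in Rosa26 cells. With IFNγ it had 54.2 and 52.4 CPM in sgRNA1 cells and 50.1 and 47.0 in sgRNA2 cells, against 68.1 and 72.7 in Rosa26 cells. The Cop1-guide and Rosa26 libraries did not overlap in either treatment, and Rosa26 libraries with and without IFNγ did overlap. The log2 change with Cop1 loss was -0.26 ± 0.051 in vehicle (adjusted p = 8.69e-05), or 0.838-fold, and -0.47 ± 0.052 with IFNγ (adjusted p = 7.72e-10), or 0.723-fold. IFNγ lowered Smad7 in Cop1-loss cells (-0.25 ± 0.044, adjusted p = 1.06e-05), while its change in Rosa26 cells was -0.04 ± 0.058 (adjusted p = 0.679). Whether these responses differ was tested directly: the difference was -0.21 ± 0.073 and was not called at an adjusted p of 0.0791 (unadjusted 0.00593). Without sgRNA1 replicate 1 in vehicle the difference was -0.26 and was called (adjusted p = 0.0243), so the outcome of this test rests on that library.

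Smad6 (chromosome 9, 63953076 to 64022059, minus strand), the inhibitory SMAD better known from BMP signalling, rested on few counts. It lay between 4.03 and 5.24 CPM in Cop1-guide libraries and between 4.7 and 5.43 in Rosa26 libraries in vehicle, and between 3.74 and 4.94 against 4.66 to 6.1 with IFNγ. The ranges overlapped in both treatments. Its log2 change with Cop1 loss was -0.19 ± 0.172 in vehicle (adjusted p = 0.412) and -0.28 ± 0.171 with IFNγ (adjusted p = 0.205), with standard errors wider than the 0.051 and 0.052 of Smad7.

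The Id genes split by condition. Id2 (chromosome 12, 25093799 to 25097140, minus strand) was higher with Cop1 loss and lower with IFNγ. In vehicle it had 30.3 and 30.1 CPM in sgRNA1 cells and 28.0 and 28.2 in sgRNA2 cells, against 20.5 and 20.9 in Rosa26 cells. With IFNγ it had 25.7 and 22.2 CPM in sgRNA1 cells and 21.7 and 21.8 in sgRNA2 cells, against 16.8 and 15.8 in Rosa26 cells. No libraries overlapped in either contrast, and the Cop1-guide cells with IFNγ stood close to the Rosa26 cells in vehicle. The log2 change with Cop1 loss was 0.49 ± 0.075 in vehicle (adjusted p = 1.05e-06) and 0.49 ± 0.08 with IFNγ (adjusted p = 3.58e-06), that is 1.41-fold and 1.4-fold. With IFNγ it fell by 0.35 ± 0.06 on the log2 scale in Cop1-loss cells (adjusted p = 7.29e-06) and by 0.345 ± 0.092 in Rosa26 cells (adjusted p = 0.003). The call in Rosa26 cells was lost without Rosa26 replicate 2 with IFNγ (adjusted p = 0.0514).

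Id3 (chromosome 4, 136143497 to 136145755, plus strand) was higher with Cop1 loss and higher with IFNγ. With IFNγ it had 153 and 145 CPM in sgRNA1 cells and 146 and 152 in sgRNA2 cells, against 131 and 124 in Rosa26 cells. In vehicle it had 97.9 and 103 CPM in sgRNA1 cells and 92.7 and 97.2 in sgRNA2 cells, against 82.1 and 73.5 in Rosa26 cells. The groups stood apart in both contrasts, with Rosa26 cells in vehicle lowest. The log2 change with Cop1 loss was 0.32 ± 0.044 in vehicle (adjusted p = 8.91e-08) and 0.22 ± 0.04 with IFNγ (adjusted p = 2.15e-05), the second being 1.17-fold. IFNγ raised Id3 by 0.61 ± 0.034 in Cop1-loss cells (adjusted p = 2e-19), or 1.53-fold, and by 0.71 ± 0.049 in Rosa26 cells (adjusted p = 5.12e-16), or 1.64-fold. The difference of these responses, -0.10 ± 0.059, was not called (adjusted p = 0.37).

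Id1 (chromosome 2, 152736251 to 152737410, plus strand) rose with IFNγ in both kinds of cells. With IFNγ it had 53.9 and 53.8 CPM in sgRNA1 cells and 45.6 and 47.3 in sgRNA2 cells, against 38.6 and 39.0 in sgRNA1 cells and 34.7 and 36.7 in sgRNA2 cells in vehicle. Rosa26 cells had 51.0 and 51.9 CPM with IFNγ, against 37.9 and 38.9 in vehicle. Every IFNγ library lay above every vehicle library, while the Cop1-guide and Rosa26 libraries overlapped within each treatment. The log2 change with IFNγ was 0.425 ± 0.045 in Cop1-loss cells (adjusted p = 1.54e-10) and 0.42 ± 0.063 in Rosa26 cells (adjusted p = 5.91e-07), 1.34-fold in both. Cop1 loss gave -0.04 ± 0.056 in vehicle (adjusted p = 0.591) and -0.04 ± 0.053 with IFNγ (adjusted p = 0.562).

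**Figure D2:**
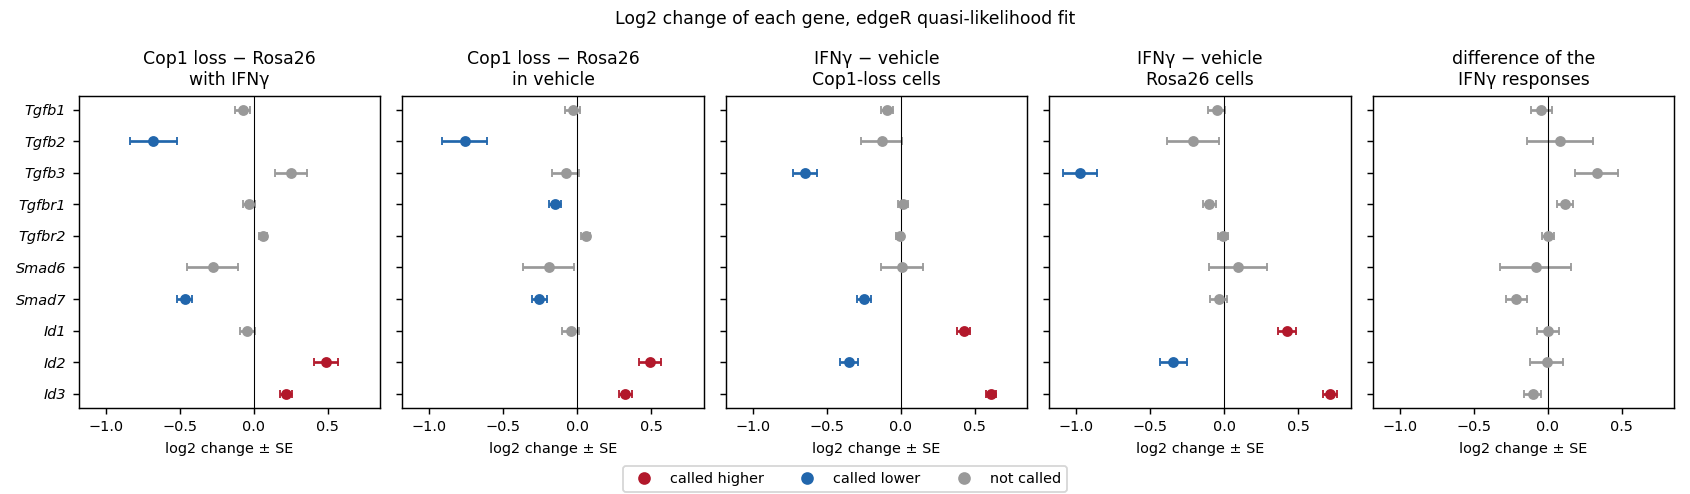
Log2 change of each gene with its standard error in 5 comparisons from edgeR, with called values coloured and the others grey. Tgfb2 and Smad7 are negative and Id2 and Id3 positive for Cop1 loss in both treatments, Tgfb3 is negative for IFNγ in both kinds of cells, and none of the 10 is called for the difference of the IFNγ responses.

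The guides were then compared one at a time with the Rosa26 libraries, which both comparisons share. In vehicle, sgRNA1 called 5 members and sgRNA2 called 5, against 33.4% and 29.2% of all genes. The called genes were Tgfb2, Smad7, Tgfbr1, Id2 and Id3 for each guide. Tgfb2 changed by -0.865 ± 0.18 with sgRNA1 and -0.65 ± 0.181 with sgRNA2 on the log2 scale, and Id2 by 0.545 and 0.44. With IFNγ, sgRNA1 called 5 and sgRNA2 called 4, against 38.2% and 32.9% of all genes, Tgfb3 being the gene called with sgRNA1 alone. Tgfb2 then changed by -0.80 with sgRNA1 and -0.55 with sgRNA2, Smad7 by -0.40 and -0.53, Id2 by 0.56 and 0.42, and Id3 by 0.22 with each. The IFNγ response called 5 members in sgRNA1 cells and 5 in sgRNA2 cells, against 22.5% and 25.3% of all genes. Tgfb3 changed by -0.45 in sgRNA1 and -0.84 in sgRNA2 cells with IFNγ, Id3 by 0.58 and 0.65, and Id1 by 0.47 and 0.375. A direct comparison of sgRNA2 with sgRNA1 cells called no member in vehicle, where 5.99% of all genes were called. In that comparison edgeR gave 1 member an unadjusted p under 0.05, Tgfb1, and DESeq2 called 0. With IFNγ it called Id1 alone (-0.22 ± 0.062, adjusted p = 0.02), against 9.41% of all genes. The Id1 call was lost when any 1 of these 4 libraries was left out, with adjusted p-values between 0.0545 and 0.201.

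**Figure D3:**
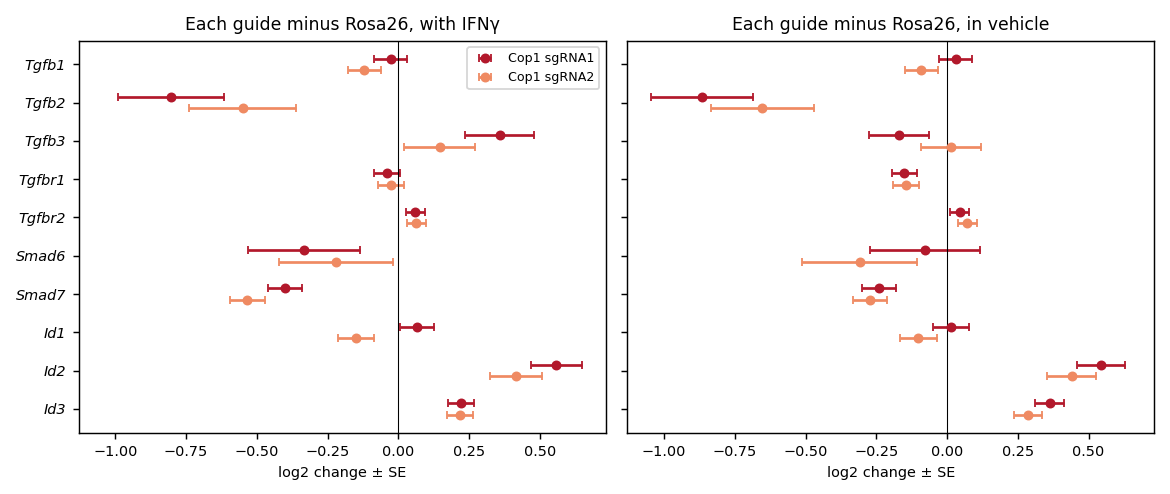
Log2 change of each gene against Rosa26 cells with its standard error, for sgRNA1 and sgRNA2 separately, with IFNγ on the left and in vehicle on the right. Both guides give a negative value for Tgfb2 and Smad7 and a positive value for Id2 and Id3 in each treatment, and both share the Rosa26 libraries.

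The difference of the IFNγ responses between Cop1-loss and Rosa26 cells (the interaction) was called for none of the 10 genes by edgeR or by DESeq2, against 5.74% of all genes. An unadjusted p under 0.05 was found for 3 of them: Smad7 and Tgfbr1, given above, and Tgfb3, whose fall with IFNγ was 0.33 ± 0.143 smaller on the log2 scale in Cop1-loss cells (adjusted p = 0.187).

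Levels of different genes were compared per kilobase of annotated exon. Id3 came first in every group, with 83.3, 83.1 and 71.4 CPM per kilobase in sgRNA1, sgRNA2 and Rosa26 cells with IFNγ, against 56.0, 53.0 and 43.5 in vehicle. Id1 and Tgfbr2 followed, and their library values overlapped in sgRNA2 cells in vehicle. Tgfbr1, Tgfb1 and Smad7 changed places with each other: Smad7 came before Tgfbr1 in Rosa26 cells with IFNγ, where the libraries overlapped, and Tgfb1 before Tgfbr1 in sgRNA1 cells in vehicle, where they also overlapped. Id2, Tgfb3, Smad6 and Tgfb2 made up the lower end in that order in the groups of Cop1-guide cells and of Rosa26 cells alike. Tgfb2 was the lowest throughout, with 0.597, 0.71 and 1.04 CPM per kilobase in sgRNA1, sgRNA2 and Rosa26 cells with IFNγ, against 0.661, 0.766 and 1.21 in vehicle.

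The group means of Tgfb2, Tgfb3, Smad7, Id1, Id2 and Id3 spanned at least 0.5 on the log2 scale over the 6 groups, from 0.572 for Smad7 to 0.998 for Tgfb2. Tgfbr2 spanned 0.082. For these genes the most similar profiles among 9062 genes were found by the root mean square distance of centred log2 group means. Erfe (0.053) and Amot (0.057) came nearest to Tgfb2, Faap24 (0.023) and Herc3 (0.031) to Smad7, and Pdcd4 (0.089) and Rtkn2 (0.095) to Tgfb3. Vhl (0.028) and Nudt19 (0.048) came nearest to Id1, Pitpnc1 (0.036) and Rap1gap (0.038) to Id2, and Inpp1 (0.052) and Nectin2 (0.055) to Id3. These distances describe 6 group means.

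Further pathway genes were described by lists, some of which share genes. The lists were chosen with earlier results of these data known. The TGF-β target list contains the member Smad7, which was lower with Cop1 loss in both treatments, as given above. Its genes Ltbp2, Skil, Pmepa1, Tgif1 and Bhlhe40 also stand in other lists. Of 17 tested target genes of TGF-β, Cop1 loss lowered 10 and raised 1 in vehicle, and lowered 12 and raised 2 with IFNγ, where 19.2% of all genes were called lower in vehicle and 20.7% with IFNγ. The list's median log2 change was -0.34 in vehicle and -0.37 with IFNγ, against -0.01 and -0.004 over all genes. Ccn2, a secreted matricellular protein gene, averaged 46.0 ± 0.514 CPM in sgRNA1 and 56.7 ± 0.492 in sgRNA2 cells in vehicle, against 87.3 ± 1.18 in Rosa26 cells (SD, n = 2 each). With IFNγ it averaged 34.2 ± 2.21 and 40.3 ± 1.69 CPM, against 86.9 ± 0.735. Its log2 change with Cop1 loss was -0.77 ± 0.047 in vehicle (adjusted p = 4.27e-17) and -1.225 ± 0.049 with IFNγ (adjusted p = 2.18e-23). Junb, an AP-1 subunit gene, had a log2 change of -0.46 ± 0.028 in vehicle (adjusted p = 3.99e-17) and -0.97 ± 0.027 with IFNγ (adjusted p = 4.68e-29). With the libraries of each population summed, 7 of these targets were called in vehicle and 10 with IFNγ. Some of these targets, such as Ccn2 and Junb, are also induced by other pathways.

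Genes for the storage and release of latent TGF-β showed 6 lower and 1 higher of 10 tested in vehicle, where 19.2% of all genes were called lower and 16.6% higher, and 4 lower and 2 higher with IFNγ, where 20.7% and 19.8% were. Summed libraries called 4 of these 10 in vehicle and 3 with IFNγ. Thbs1, whose product thrombospondin-1 can activate latent TGF-β, averaged 177 ± 0.176 CPM in sgRNA1 and 213 ± 13.6 in sgRNA2 cells in vehicle, against 341 ± 0.344 in Rosa26 cells (log2 change -0.81 ± 0.029, adjusted p = 7.74e-25). With IFNγ the change was smaller, at -0.345 ± 0.029 (adjusted p = 2.68e-13), and the difference between the treatments was itself called (0.46 ± 0.041, adjusted p = 5.99e-11). With summed libraries Thbs1 was not called with IFNγ (adjusted p = 0.132), nor was this difference (adjusted p = 0.998). Ltbp2, also in the target list, belongs to the latent TGF-β binding protein family, although its own product does not bind latent TGF-β. It changed by -0.55 ± 0.034 in vehicle (adjusted p = 5.05e-17) and -0.43 ± 0.034 with IFNγ (adjusted p = 9.12e-14). Itgb6, the β subunit of an integrin that activates latent TGF-β, averaged 3.21 ± 0.131 and 5.05 ± 0.0855 CPM in sgRNA1 and sgRNA2 cells with IFNγ, against 10.3 ± 0.7 in Rosa26 cells (log2 change -1.36 ± 0.143, adjusted p = 1.75e-10). Its partner Itgav was not called with IFNγ (-0.03 ± 0.032, adjusted p = 0.493). In vehicle Itgav averaged 247 ± 17.2 CPM in sgRNA1 and 233 ± 2.37 in sgRNA2 cells, against 266 ± 5.6 in Rosa26 cells.

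Nuclear and ubiquitin regulators of SMADs gave 5 lower and 0 higher of 11 in vehicle, and 5 lower and 1 higher with IFNγ, beside the same all-gene shares. Summed libraries called 1 and 2 of them. Pmepa1, which restrains SMAD signalling at the membrane, fell by 0.34 ± 0.034 in vehicle and 0.37 ± 0.036 with IFNγ (adjusted p = 5.98e-11 and 1.74e-11). Skil, which encodes the SMAD corepressor SnoN, fell by 0.22 ± 0.037 and 0.44 ± 0.036 (adjusted p = 3.8e-06 and 1.67e-13), and the call in vehicle was lost with summed libraries (adjusted p = 0.0994). Of 13 tested genes for receptor SMADs, Smad4 and other receptors, 1 was higher and 3 lower in vehicle, and 3 were higher and 3 lower with IFNγ. Smad3 was among those higher, by 0.20 ± 0.04 in vehicle and 0.26 ± 0.041 with IFNγ (adjusted p = 6.74e-05 and 1.87e-06), and Tgfbr3, the coreceptor betaglycan, was lower by 0.35 ± 0.08 and 0.40 ± 0.077 (adjusted p = 0.000565 and 3.87e-05). Summed libraries called 0 of the 13 in vehicle and 2 with IFNγ: Smad3 was lost in vehicle (adjusted p = 0.102), and Tgfbr3 in vehicle and with IFNγ (adjusted p = 0.101 and 0.0504). Smad4 was not called in either treatment (log2 change -0.03 ± 0.04 and -0.05 ± 0.04). The median of this list was -0.03 in vehicle and -0.05 with IFNγ, beside the all-gene medians given above.

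Only 5 of 21 genes listed as BMP, activin and GDF ligands passed the low-count filter. They include Bmp1, which despite its name encodes a protease and not a ligand. Beside all lists of this paragraph, 16.6% of all genes were called higher and 19.2% lower with Cop1 loss in vehicle. With IFNγ these shares were 19.8% and 20.7%. Bmp7 and Gdf11 were higher and Inhba, which encodes an activin subunit, was lower with Cop1 loss in both treatments. Bmp7 rose by 0.38 ± 0.047 in vehicle and 0.42 ± 0.05 with IFNγ (adjusted p = 8.64e-09 and 3.44e-09), and Inhba fell by 0.20 ± 0.039 and 0.28 ± 0.037 (adjusted p = 4.86e-05 and 6e-08). Summed libraries called 0 of the 5 in vehicle and 1 with IFNγ. Bmp7 was then at an adjusted p of 0.122 in vehicle and 0.085 with IFNγ, Inhba at 0.205 and 0.0801, and Gdf11 in vehicle at 0.0747. The Inhba call in vehicle was also lost with sgRNA2 alone. The other called genes were Bmp1 in vehicle and Inhbb with IFNγ, both lower and named here after their values were seen. Of 9 tested BMP targets, a list that contains Id1, Id2, Id3, Smad6 and Smad7, 3 were higher and 2 lower in vehicle, and 3 were higher and 3 lower with IFNγ. Runx2 was the non-member with the smallest p, at -0.36 ± 0.07 in vehicle and -0.38 ± 0.069 with IFNγ (adjusted p = 5.79e-05 and 1.96e-05), and its call in vehicle was lost with summed libraries (adjusted p = 0.0546). Among 8 E proteins and other helix-loop-helix genes, 3 were higher and 2 lower with Cop1 loss in each treatment. Tcf3, an E protein gene, rose by 0.20 ± 0.033 and 0.26 ± 0.033 (adjusted p = 2.57e-06 and 1.96e-08), the call in vehicle being lost with summed libraries (adjusted p = 0.0716), and Bhlhe40 fell by 0.51 ± 0.047 and 0.70 ± 0.047 (adjusted p = 9.12e-12 and 4.08e-16). Among 5 tested antagonists edgeR called 0 in vehicle (1 at an unadjusted p under 0.05, and 0 by DESeq2), and 2 were higher and 2 lower with IFNγ, of which summed libraries called 0.

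**Figure D4:**
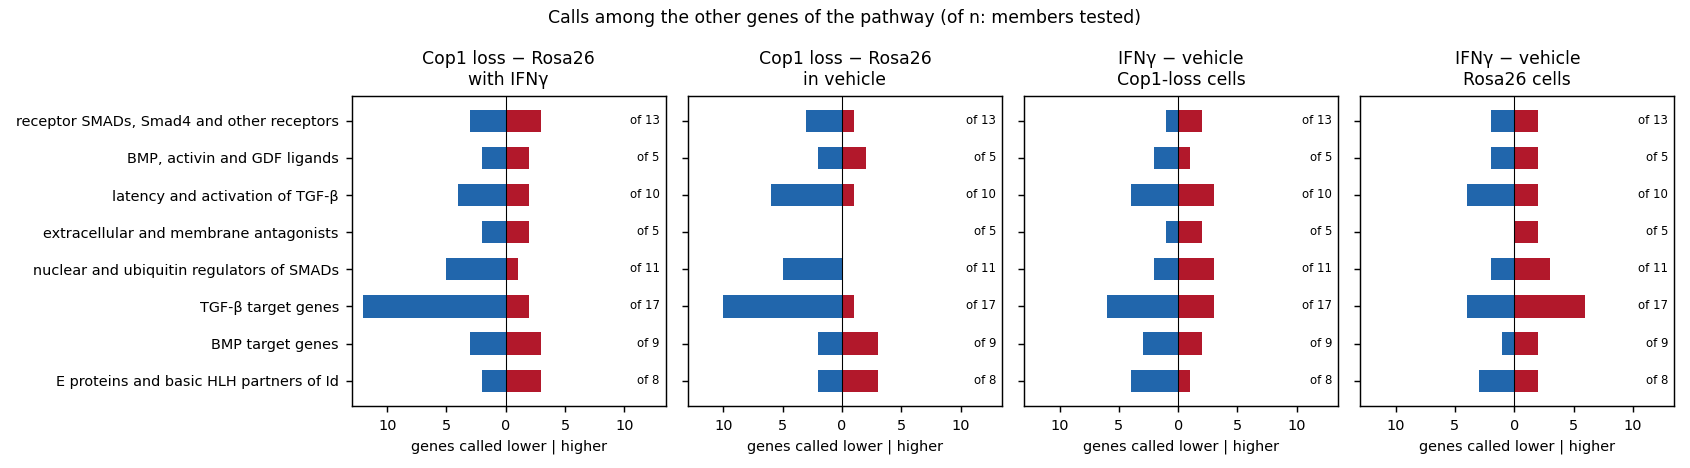
Number of genes called lower (left of 0) and higher (right of 0) in each of 8 pathway lists in 4 comparisons, with the number of genes tested at the right of each bar. The TGF-β target list includes the member Smad7. The TGF-β target list has 12 lower and 2 higher of 17 for Cop1 loss with IFNγ and 10 lower and 1 higher in vehicle, and 6 lower and 3 higher for IFNγ in Cop1-loss cells against 4 lower and 6 higher in Rosa26 cells.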

How the data were processed

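Total RNA of 12 libraries of 4T1 cells was made into libraries with an Illumina TruSeq RNA kit after QIAGEN extraction, per the labels' protocols. Per the submitters' processing notes the authors used STAR 2.4.0, HTSeq, DESeq2 1.10 and the build mm10 (GRCm38). The deposited values are whole-number counts per gene and library, not normalized. The sources used here do not give the annotation, the strand setting or the handling of multiply aligned reads. Treatments were taken from the treatment characteristic of each sample. There were 0 columns of other samples. A row of totals, equal to the sum over genes in 11 libraries, was left out.

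edgeR 4.0.16 in R 4.3.3 gave all tests, with TMM, filterByExpr (minimum count 10, minimum total 15), a robust quasi-likelihood F test and 1 mean per group, so that all 6 groups share the spread (6 residual degrees of freedom, replicate coefficient of variation 3.21%). The spread of each gene was also drawn from the other genes, with a median of 34.5 prior degrees of freedom, on which the p-values depend. At most 0.0267% of a library's counts were in removed genes. CPM uses TMM-scaled library sizes, and standard errors are the log2 change over the root of F. Replicates of each group differed beyond sampling noise (chi-square per degree of freedom 2.33 to 4.21). Alternatives were another scaling, DESeq2 1.42.0, no filter, only the compared groups, a replicate block, each library left out, each guide alone and libraries of a population summed. The model code was tested on simulated data.

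Gene positions and exon lengths come from GENCODE M21 on GRCm38. Promoter stretches that overlap annotated exons were not printed, which left out Id3. The members, lists and tests were chosen with earlier results of these data known. Named genes are the 10 members, Cop1, per list and comparison at most the 3 called genes with the smallest p and the uncalled one with the highest level, and the 2 nearest profiles of each member that spans at least 0.5 on the log2 scale, among genes whose mean log2 CPM reaches 3. One listed gene, Acvr1b, was not matched by symbol, and Ctgf was matched as Ccn2. Some listed genes are not reported here by name.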

Additional observations from a re-analysis of the deposited data

Results flagged for a closer look

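Id1 was lower in sgRNA2 than in sgRNA1 cells with IFNγ by a direct test of the guides. Its mean was 46.4 ± 1.19 CPM in sgRNA2 cells and 53.9 ± 0.0439 CPM in sgRNA1 cells (SD, n = 2 each), a log2 difference of -0.216 (edgeR adjusted p = 0.02), with 2 of 2 sgRNA2 libraries below both sgRNA1 libraries. It was lost without any 1 of these 4 libraries.

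The IFNγ response differed between Cop1-loss and Rosa26 cells, by edgeR's test of the interaction, for 12 genes of the pathway lists named here. Of all tested genes, 5.74% were called. The 12 are at most the 3 called genes with the smallest p in each list, so they give no share of the lists. Each is given as the log2 response in Cop1-loss cells minus that in Rosa26 cells. Those with a higher value in Cop1-loss cells were Thbs1 (0.464, adjusted p = 5.99e-11), Twsg1 (0.237, adjusted p = 0.000345), Bmp1 (0.153, adjusted p = 0.0142), Ltbp3 (0.151, adjusted p = 0.0138) and Ltbp1 (0.138, adjusted p = 0.0493). Those with a lower value were Inhbb (-0.891, adjusted p = 0.0401), Cdkn1a (-0.65, adjusted p = 6.38e-06), Junb (-0.509, adjusted p = 1e-12), Ccn2 (-0.452, adjusted p = 1.22e-05), Nbl1 (-0.446, adjusted p = 0.0148), Skil (-0.218, adjusted p = 0.00578) and Myc (-0.14, adjusted p = 0.031). For Junb, with 246 ± 0.438 CPM in sgRNA1, 262 ± 2.55 in sgRNA2 and 495 ± 1.53 in Rosa26 cells with IFNγ, against 214 ± 1.53, 220 ± 2.84 and 298 ± 13.4 CPM in vehicle, the smaller response held with both guides. The calls of Thbs1, Junb, Cdkn1a, Ccn2 and Twsg1 held without any single library. Those of Bmp1, Inhbb, Ltbp3, Ltbp1, Nbl1, Skil and Myc were lost without at least 1 library. Over all alternatives run, Ltbp1 was lost in 16 of 19, Inhbb in 12 of 18 and Myc in 11 of 19. DESeq2 called neither Ltbp1 nor Myc. The Inhbb value rests on 120 to 241 counts per group. With each guide alone, Twsg1 and Bmp1 were not called for sgRNA1, and Ltbp3, Nbl1 and Skil were not called for sgRNA2. Inhbb, Ltbp1 and Myc were called for neither. With the libraries of each population summed, none of the 12 was called, and neither was any other gene.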

How the results depend on the processing

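Of 19 calls of members in 7 comparisons, 13 held under every alternative run, and no called value changed sign. Summing leaves a single Rosa26 sample per treatment, so the spread of that fit comes from the guide populations and not from Rosa26 cells. It also leaves fewer residual degrees of freedom, and why single calls were lost was not tested. With the libraries of each population summed, which leaves 6 samples, members called numbered 3 in vehicle for Cop1 loss (Tgfbr1 and Smad7 lost, adjusted p = 0.177 and 0.0755) and 2 for IFNγ in Rosa26 cells (Id1 and Id2 lost, 0.0562 and 0.13). Id3 with Cop1 loss and IFNγ was lost as well (0.0566), and so was Cop1 itself (0.342 in vehicle). Leaving out each library in turn gave 0 to 1 called members for the interaction and 0 for sgRNA2 against sgRNA1 with IFNγ. Tgfb1 became called without 1 library for IFNγ in Cop1-loss cells: -0.13 without sgRNA1 replicate 1 in vehicle (adjusted p = 0.0215) and -0.12 without sgRNA2 replicate 2 with IFNγ (adjusted p = 0.0462). Same-numbered libraries of different groups did not deviate together (correlations -0.03 to 0.045 over 15 pairs of groups). With the replicate block, members called stayed 5, 4, 4, 5, 0, 0 and 1 for Cop1 loss in vehicle and with IFNγ, IFNγ in Rosa26 and Cop1-loss cells, the interaction, and the guides in vehicle and with IFNγ. Of all genes, summed libraries called 865, 1397, 1102, 1364 and 0 in the first 5 of these, against 4258, 4828, 3900, 4073 and 683. sgRNA1 alone called 2674 for IFNγ in Cop1-loss cells and 416 for the interaction. The interaction fell to 452 and 353 without Rosa26 vehicle replicate 1 and 2 and to 344 without Rosa26 replicate 1 with IFNγ, and the guide comparisons ranged down to 348 of 713 in vehicle and 420 of 1120 with IFNγ when 1 library was left out. The lists and the genes named from them were rerun under the same alternatives, chosen after seeing the data. Of their 119 calls, those of Cop1 included, 56 held under every alternative and 33 were lost with summed libraries alone. Apart from summing, TGF-β targets called lower numbered 9 to 11 for Cop1 loss in vehicle and 12 with IFNγ, and latency genes 6 to 7 and 4. Summed libraries called 7 and 10 of the 17 targets. Tgfb2 and Smad6, the genes with the fewest counts, have the widest errors of the 10.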

Other observations

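IFNγ raised Fst, whose product follistatin binds and neutralises activins, more than any other named gene of the pathway lists. It averaged 81.3 ± 1.15 CPM in sgRNA1 and 73.3 ± 0.863 in sgRNA2 cells with IFNγ, against 1.15 ± 0.0282 and 1.78 ± 0.194 in vehicle, and 67.1 ± 2.96 in Rosa26 cells with IFNγ, against 1.56 ± 0.5 in vehicle (SD, n = 2 each). The edgeR log2 change was 5.75 ± 0.081 in Cop1-loss cells (adjusted p = 1.39e-41) and 5.43 ± 0.116 in Rosa26 cells (adjusted p = 1.91e-34), and the difference between them was not called (0.315 ± 0.219, adjusted p = 0.484). The vehicle values rest on 25 to 43 counts per library. Inhba, the activin subunit gene, rose as well, by 0.37 ± 0.032 in Cop1-loss cells and 0.45 ± 0.044 in Rosa26 cells (adjusted p = 3.25e-13 and 2.52e-11).

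Eng, which encodes the coreceptor endoglin, averaged 131 ± 1.73 CPM in sgRNA1 and 129 ± 2.21 in sgRNA2 cells with IFNγ, against 76.5 ± 0.368 and 70.7 ± 1.75 in vehicle. Rosa26 cells averaged 128 ± 0.781 CPM with IFNγ, against 76.7 ± 3.77 in vehicle. Its log2 change was 0.825 ± 0.033 in Cop1-loss cells and 0.74 ± 0.046 in Rosa26 cells (adjusted p = 1.31e-24 and 1.78e-17). Tgfbr3 changed by 0.30 ± 0.067 in Cop1-loss cells and 0.36 ± 0.089 in Rosa26 cells with IFNγ (adjusted p = 0.000308 and 0.00149), and Smad3 by -0.195 ± 0.032 and -0.25 ± 0.047 (adjusted p = 3.58e-06 and 3.59e-05). With the libraries of each population summed, these 4 calls were lost (adjusted p = 0.0738 and 0.142 for Tgfbr3, and 0.0507 and 0.0805 for Smad3). Of the latency genes, Ltbp3 fell by 0.415 ± 0.023 in Cop1-loss cells and 0.565 ± 0.032 in Rosa26 cells (adjusted p = 1.76e-19 and 9.09e-19), and Furin, a protease gene that processes the TGF-β precursor, rose by 0.33 ± 0.027 and 0.34 ± 0.039 (adjusted p = 1.28e-13 and 1.16e-09). Among helix-loop-helix genes Tcf4 fell by 0.33 ± 0.031 in Cop1-loss cells and 0.465 ± 0.045 in Rosa26 cells, and Hes1 by 0.51 ± 0.057 and 0.43 ± 0.08. The TGF-β target list gave 3 higher and 6 lower of 17 under IFNγ in Cop1-loss cells, where 18.1% of all genes were called higher and 16.1% lower, and 6 higher and 4 lower in Rosa26 cells, where 16.6% and 16.2% were. Summed libraries called 5 of the 17 in each.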
